A study of Mus musculus with 6 samples.

Results

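The genes described here are 8 genes of the YAP pathway and of the fetal-like state of intestinal epithelium: *Yap1*, *Wwtr1*, *Lats2*, *Amotl2*, *Ccn1*, *Ccn2*, *Clu* and *Anxa1*. They were taken by gene symbol from a table of 20409 features, and all 8 were listed in it (*Ccn1* and *Ccn2* are *Cyr61* and *Ctgf* in the older annotation of the table). Of the 8, 6 had enough counts to be tested among 13346 genes. *Ccn2* and *Anxa1* did not pass the filter on low counts and are given by their counts.

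In the Hippo pathway, the kinases MST1 and MST2 (*Stk4* and *Stk3*) activate the kinases LATS1 and LATS2, which phosphorylate the coactivators YAP (*Yap1*) and TAZ (*Wwtr1*) and keep them out of the nucleus. Unphosphorylated YAP and TAZ bind TEAD transcription factors and drive target genes such as *Ccn1*, *Ccn2* and *Amotl2*, and also *Lats2*, which closes a negative feedback loop. In the intestine, YAP is best known for its part in repair, when injured epithelium takes on genes of the fetal gut, among them *Clu* and *Anxa1*. The control of YAP and TAZ acts largely on the proteins and their place in the cell, which RNA counts do not measure.

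Duodenal villus epithelium of 6 mice was profiled by RNA-seq, 3 of them double mutant and 3 wild-type, with 1 library of polyadenylated RNA each. Double mutant mice carried Smad4 fl/fl, Ctnnb exon3 fl/wt (deletion of exon 3 makes a stable β-catenin) and Villin-CreERT2, a tamoxifen-inducible Cre that acts in the whole intestinal epithelium, on a background enriched for C57BL6. They received 0.05 g/kg tamoxifen on each of 4 consecutive days, and villi were collected 7 days after the first injection. The wild-type mice were littermates without injection, so tamoxifen and genotype cannot be told apart. Each group held 2 females and 1 male, age-matched at ages not given, and the alleles carried by the wild-type mice were not given in the sources used here. *Smad4* transcripts changed by -2.22 on the log2 scale in the double mutant (adjusted p = 0.000145, edgeR), with every double mutant library under every wild-type library. *Ctnnb1* transcripts changed by -0.15 (adjusted p = 0.359, edgeR), with overlapping groups. Counts per gene do not show the deletion of *Ctnnb1* exon 3.

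Depth ran from 19678507 to 26337318 counts per library, at which 3 counts, the smallest level taken as shown, correspond to 0.125 to 0.163 CPM. CPM are counts relative to the library total scaled by edgeR's TMM factors and set to a common size, and a call means an adjusted p under 0.05 from edgeR's quasi-likelihood test over the 13346 genes. The library of wild-type mouse 1 stood apart: 7 goblet cell markers summed to 3396 counts in it, against 287618 and 293460 in the other wild-type libraries and 106719 to 117064 in the double mutant libraries. It was also low in 7 Paneth cell markers, with 191 summed counts against 16748 and 29709 in the other wild-type and 3273 to 5357 in the double mutant libraries. The library of double mutant mouse 1 held 20 to 47 counts of each of *Acta2*, *Myh11*, *Actg2*, *Des* and *Cnn1*, smooth muscle genes with 0 to 8 counts in each other library, while the remaining gene of that list, *Tagln*, had 100, 118 and 145 counts in the wild-type and 99, 129 and 85 in the double mutant libraries. Of 6 fibroblast markers in the table, *Col1a1*, *Col1a2*, *Col3a1* and *Pdgfra* had 0 to 8 counts everywhere, *Pdgfrb* had 2 to 16, and *Vim* had 35, 42 and 55 against 66, 81 and 59 (adjusted p = 0.2, edgeR). Summed, they had 47, 47 and 69 counts against 85, 93 and 75 (two-sided exact permutation p = 0.1 on their share of counts). Of 9 epithelial markers, *Vil1* (log2 fold change -0.85, adjusted p = 0.0012, edgeR) and *Krt20* (-0.97, adjusted p = 0.000806) fell, *Krt19* (1.55, adjusted p = 0.000231) rose, and the other 6, *Epcam* (0.03, adjusted p = 0.843) among them, were not called, where 36.8% of all tested genes were called. In bulk samples, fewer cells of a type and less RNA per cell cannot be told apart.

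The promoters of 4 of these genes are shown, with the TEAD motif through which YAP and TAZ act marked where it occurs. It occurs in those of *Yap1*, *Wwtr1* and *Ccn1* and not in that of *Lats2*. Of the 4 genes, 2 (*Wwtr1* and *Lats2*) fell in the double mutant and 2 (*Yap1* and *Ccn1*) were not called. Each run is the 250 bases before the transcription start in the RefSeq promoter table (GRCm38.p6), 5′ to 3′ on the gene's strand, and each matched the mm9 chromosome at 1 place. Capitals mark the TEAD motif GGAATG or its reverse complement CATTCC. The windows lie in mm9 at chr9:8004597-8004846 (*Yap1*), chr3:57379833-57380082 (*Wwtr1*), chr3:145312950-145313199 (*Ccn1*) and chr14:58364961-58365210 (*Lats2*), each on the minus strand. The windows of *Yap1*, *Wwtr1* and *Ccn1* end at the base before the annotated gene, and that of *Lats2* lies inside the annotated gene, between exons. For *Wwtr1* and *Lats2* the more upstream of 2 RefSeq starts was used.
Yap1: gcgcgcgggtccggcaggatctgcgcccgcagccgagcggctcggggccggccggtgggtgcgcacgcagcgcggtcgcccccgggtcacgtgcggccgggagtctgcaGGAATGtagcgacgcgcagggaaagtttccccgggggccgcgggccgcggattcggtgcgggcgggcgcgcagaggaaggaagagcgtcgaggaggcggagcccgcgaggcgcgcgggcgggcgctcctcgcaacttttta
Wwtr1: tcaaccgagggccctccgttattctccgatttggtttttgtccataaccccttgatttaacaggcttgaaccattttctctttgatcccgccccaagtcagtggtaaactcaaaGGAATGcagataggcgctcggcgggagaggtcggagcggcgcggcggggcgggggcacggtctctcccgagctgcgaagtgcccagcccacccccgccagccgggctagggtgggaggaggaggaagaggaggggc
Ccn1: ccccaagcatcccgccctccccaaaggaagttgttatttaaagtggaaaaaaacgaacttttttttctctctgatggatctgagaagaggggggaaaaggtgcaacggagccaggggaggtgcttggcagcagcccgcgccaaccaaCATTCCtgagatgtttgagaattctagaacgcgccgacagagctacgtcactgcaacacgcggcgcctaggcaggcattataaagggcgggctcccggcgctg
Lats2: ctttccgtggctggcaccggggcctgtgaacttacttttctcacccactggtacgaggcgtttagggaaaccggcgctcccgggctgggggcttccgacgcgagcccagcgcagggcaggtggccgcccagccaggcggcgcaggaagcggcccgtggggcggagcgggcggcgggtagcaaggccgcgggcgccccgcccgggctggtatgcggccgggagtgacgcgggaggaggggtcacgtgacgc

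The TEAD motif begins 141 bases before the start of *Yap1*, 136 bases before that of *Wwtr1* and 103 bases before that of *Ccn1*. The *Lats2* window holds none, though GGAATG begins 5 bases into its transcript. Of the 8 genes, 6 matched the table, and the windows of *Amotl2* and *Anxa1* hold the motif 65 and 236 bases before the start. Both windows lie inside the annotated genes and overlap annotated exons, some of them of protein-coding transcripts. *Clu* and *Ccn2* had no entry. Among 32851 windows of the same length, 12.6% held the TEAD motif on either strand. The motif of TCF and LEF factors, CTTTGAT, through which β-catenin acts, was found in the windows of *Wwtr1* and *Amotl2* and in 3.21% of all windows. The SMAD motif GTCTG was found in the window of *Yap1* alone of the 6, and in 42.2% of all windows. None of these motifs overlap in the windows shown, and a match is a description of letters, not of a bound site.

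Of the 6 tested genes, 1 was called higher (*Clu*) and 2 lower (*Wwtr1* and *Lats2*) in double mutant villi, and 3 were not called (*Yap1*, *Ccn1* and *Amotl2*). Calls were common in this comparison: 36.8% of the 13346 tested genes were called, 19.7% higher and 17% lower, so 3 calls among 6 genes is a share near that background. The groups did not overlap for the same 3 of the 6 genes, and they did not overlap for 52.4% of all tested genes (28.1% with every double mutant library above every wild-type library and 24.2% below). The median log2 fold change was -0.03 over these 6 genes and 0.02 over all tested genes. Summed over the 8 genes, the share of all counts was 0.0115% ± 0.00129 (SD, n = 3) in wild-type and 0.0115% ± 0.000673 (SD, n = 3) in double mutant libraries (two-sided exact permutation p = 0.9, where 3 mice against 3 cannot go below 0.1).

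**Figure D1:**
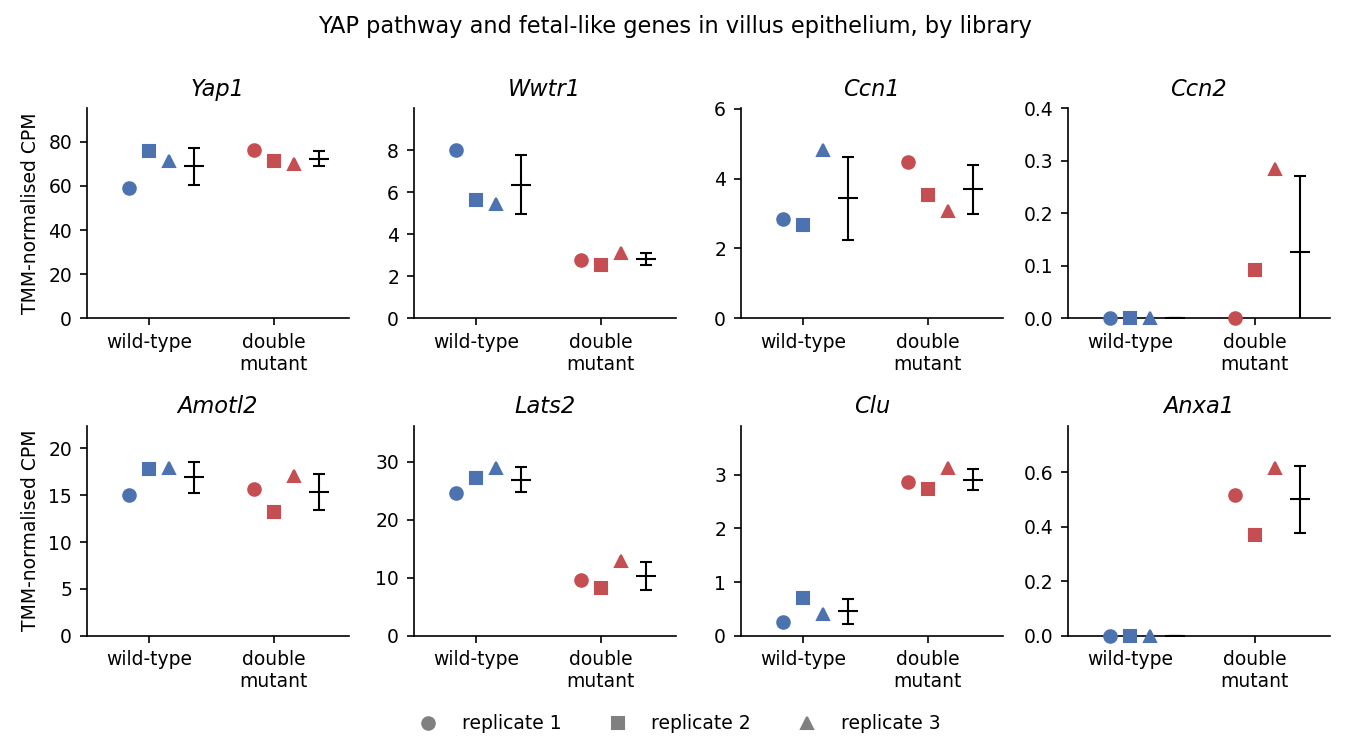
TMM-normalised CPM (vertical axis, linear, from 0, with its own range in each panel) of the 8 genes in each library, blue for wild-type and red for double mutant, with 1 symbol per replicate number; black bars give the mean and SD of 3 mice. The groups separate for *Wwtr1*, *Lats2*, *Clu* and *Anxa1* and overlap for *Yap1*, *Ccn1* and *Amotl2*, and *Ccn2* stays at or under 6 counts in every library.

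Of the coactivators, *Wwtr1* fell and *Yap1* was not called. *Yap1* (ENSMUSG00000053110; mm9 chromosome 9, 7931999 to 8004596, minus strand) encodes YAP. Its counts were 1422, 1393 and 1411 in wild-type mice 1 to 3 and 1619, 1538 and 1470 in double mutant mice 1 to 3, or 59.2, 75.8 and 71.3 CPM against 76.0, 71.3 and 69.8 CPM. The groups overlapped, with wild-type mouse 1 the lowest of the 6 and the other 5 close together. The mean was 68.8 ± 8.56 CPM for the wild-type and 72.4 ± 3.24 CPM for the double mutant (SD, n = 3 each), a log2 fold change of 0.07 with a 95% confidence interval from -0.20 to 0.35 (adjusted p = 0.668, edgeR). Without wild-type mouse 1 it was -0.02. Of its exonic bases, 116 lie opposite an antisense gene.

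*Wwtr1* (ENSMUSG00000027803; chromosome 3, 57259571 to 57379832, minus strand) encodes TAZ, the paralog of YAP. It had 192, 104 and 108 counts in the wild-type and 59, 55 and 66 counts in the double mutant mice, or 7.998, 5.66 and 5.46 CPM against 2.77, 2.55 and 3.13 CPM. Every double mutant library lay below every wild-type library, and wild-type mouse 1 stood above the other wild-type mice. *Wwtr1* fell from 6.37 ± 1.41 to 2.82 ± 0.294 CPM (SD, n = 3 each), which is -1.18 on the log2 scale (standard error 0.246, 95% confidence interval -1.74 to -0.62, adjusted p = 0.00663, edgeR). Without wild-type mouse 1 the log2 fold change was -0.98 (adjusted p = 0.00957), and the call held with each mouse left out in turn.

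Set against each other per base of exon, the ratio of *Yap1* to *Wwtr1* was 3.82, 6.91 and 6.74 in wild-type and 14.2, 14.4 and 11.5 in double mutant libraries. These ratios, taken within a library, do not depend on how libraries are scaled. The double mutant values all lay above the wild-type values, by 1.24 on the log2 scale (two-sided exact permutation p = 0.1, which is the lowest value this design allows, and also 0.1 after adjustment over the 3 ratios computed). *Yap1* was the more abundant RNA of the pair in every library.

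The TEAD factors, the DNA-binding partners of YAP and TAZ, also moved apart. *Tead1* had 30, 81 and 83 counts in the wild-type and 261, 189 and 138 counts in the double mutant mice, and rose by 1.49 on the log2 scale (standard error 0.456, adjusted p = 0.0348, edgeR). *Tead3* had 741, 507 and 588 counts against 393, 490 and 477, and fell by 0.47 on the log2 scale (standard error 0.132, adjusted p = 0.0238, edgeR). For both genes the groups did not overlap in CPM. Wild-type mouse 1, the mouse poor in goblet cell transcripts, held the lowest *Tead1* and the highest *Tead3* level. Double mutant mouse 1, whose library held smooth muscle transcripts, had the highest *Tead1* level (12.3 CPM). The part of those transcripts in the *Tead1* result was not tested.

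Both TEAD calls were narrow. The *Tead1* call was lost without wild-type mouse 3, double mutant mouse 1 or double mutant mouse 2 (adjusted p = 0.057, 0.113 and 0.0889, edgeR), and held without wild-type mouse 1 (log2 fold change 1.09, adjusted p = 0.0118). The *Tead3* call was lost without wild-type mouse 3, double mutant mouse 1 or double mutant mouse 3 (adjusted p = 0.0657, 0.0615 and 0.0522, edgeR). With the replicate number as a block both calls were lost. The *Tead3* call was also lost with library totals alone as the scale. Per length, *Tead3* was the more abundant of this pair, at 6.68 ± 0.379 against 4.84 ± 0.556 RPKM, while *Tead1* had 0.292 ± 0.157 and 0.818 ± 0.256 RPKM (wild-type and double mutant mean ± SD, n = 3 each; RPKM are TMM-normalised CPM per kilobase of exon). The ratio of *Tead3* to *Tead1* was 63.1, 16 and 18.1 in wild-type and 3.85, 6.62 and 8.83 in double mutant libraries (exact p = 0.1, permutation test).

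*Tead2* and *Tead4* were near the lower limit of detection and were not tested. *Tead2* had 0, 3 and 8 counts in the wild-type and 15, 29 and 6 in the double mutant mice, and *Tead4* had 0, 4 and 0 counts against 16, 9 and 10. *Vgll4*, a cofactor that competes with YAP for TEAD, differed by 0.17 on the log2 scale (adjusted p = 0.465, edgeR). Of the 10 genes listed as coactivators, TEAD factors and VGLL cofactors, 8 were in the table and 5 were tested, of which *Tead1* was higher and *Wwtr1* and *Tead3* were lower (60% called, against 36.8% of all tested genes), with a median log2 fold change of 0.07.

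The LATS kinases, which restrain YAP and TAZ, were represented mainly by *Lats1*, and only *Lats2* was called. *Lats2* (ENSMUSG00000021959; chromosome 14, 58260914 to 58377225, minus strand) is both a kinase of the pathway and one of its transcriptional targets. It had 590, 499 and 573 counts in the wild-type and 204, 177 and 272 counts in the double mutant mice, or 24.6, 27.1 and 29.0 CPM against 9.58, 8.21 and 12.9 CPM. The groups were far apart, and the highest double mutant value was under the lowest wild-type value. *Lats2* fell from 26.9 ± 2.20 to 10.2 ± 2.42 CPM (SD, n = 3 each), which is -1.39 on the log2 scale (standard error 0.186, 95% confidence interval -1.82 to -0.97, adjusted p = 0.000911, edgeR), and the call held with each mouse left out, between -1.59 and -1.26.

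Of the exonic bases of *Lats2*, 332 (4.55%) are shared with *Xpo4* on the same strand. *Xpo4* rose by 0.99 on the log2 scale (adjusted p = 0.0378, edgeR), opposite to *Lats2*. The other kinase, *Lats1*, had 2133, 1673 and 1593 counts in the wild-type and 1993, 1358 and 1557 in the double mutant mice, with overlapping groups (log2 fold change -0.18, adjusted p = 0.396, edgeR). The ratio of *Lats1* to *Lats2* per length was 3.62, 3.35 and 2.78 in wild-type and 9.77, 7.68 and 5.73 in double mutant libraries, 1.22 higher on the log2 scale (two-sided exact permutation p = 0.1).

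**Figure D2:**
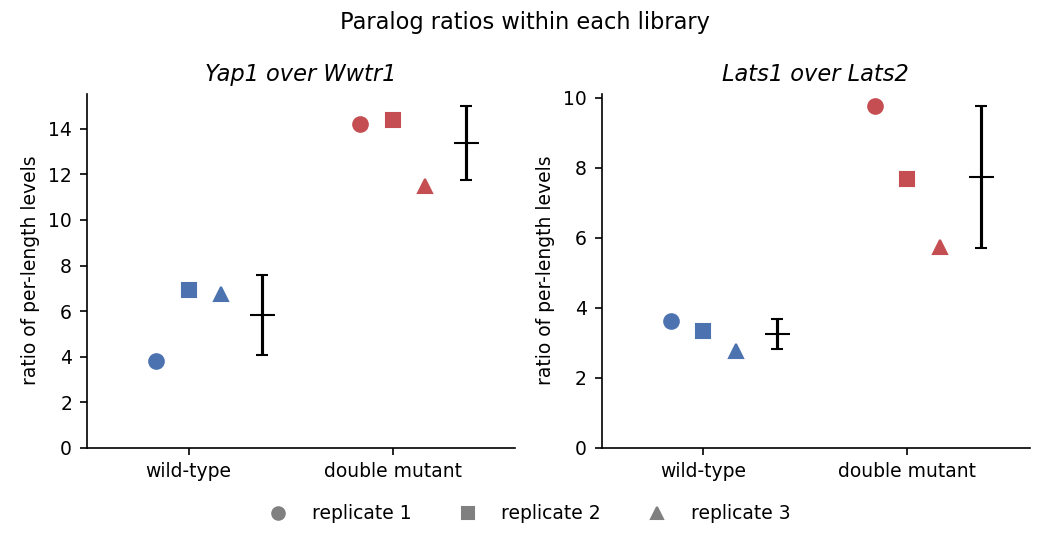
Ratio of per-length levels (vertical axis, linear, from 0) of *Yap1* over *Wwtr1* (left) and *Lats1* over *Lats2* (right) within each library, blue for wild-type and red for double mutant, with 1 symbol per replicate number and black bars for mean and SD of 3 mice. Both ratios are higher in each double mutant library than in each wild-type library.

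Of the kinases upstream of LATS, *Stk3* (log2 fold change 0.32, adjusted p = 0.271, edgeR) and *Stk4* (-0.07, adjusted p = 0.761) were not called. Over the 15 genes of the Hippo kinase module and its activators, all of them tested, 0 rose and 4 fell, and the median log2 fold change was -0.18. That is 26.7% called, against 36.8% of all tested genes (17% lower). With *Lats2*, the genes that fell were *Taok2* (-0.67, adjusted p = 0.00831) and *Taok1* (-0.47, adjusted p = 0.0419), kinases that activate MST, and *Wwc1* (-0.62, adjusted p = 0.0063), which encodes the scaffold KIBRA (edgeR). The *Taok1* call was lost without wild-type mouse 2, double mutant mouse 2 or double mutant mouse 3 (adjusted p = 0.142, 0.122 and 0.126, edgeR) and with library totals alone as the scale, while those of *Taok2* and *Wwc1* held in each fit without a mouse. Another 9 of the 15 genes had groups that overlapped, where the groups did not overlap for 52.4% of all tested genes. *Sav1* (lower) and *Taok3* (higher) had groups that did not overlap and were not called. The count of 0 genes that rose became 2 (*Nf2* and *Taok3*) when libraries were scaled by their total alone, a scaling that moved the median log2 fold change of all genes from 0.02 to 0.22.

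Angiomotins hold YAP and TAZ at cell junctions and in the cytoplasm. *Amotl2* (ENSMUSG00000032531; chromosome 9, 102619002 to 102635748, plus strand), an angiomotin and itself a YAP target, had 361, 328 and 355 counts in the wild-type and 334, 286 and 360 counts in the double mutant mice. At 15.0, 17.8 and 17.9 CPM against 15.7, 13.3 and 17.1 CPM, the groups overlapped. The means were 16.9 ± 1.65 and 15.3 ± 1.93 CPM (SD, n = 3 each), a log2 fold change of -0.14 with a 95% confidence interval from -0.50 to 0.21 (adjusted p = 0.505, edgeR). Its paralog *Amot* had 330, 304 and 348 counts against 672, 429 and 587 and rose by 0.73 on the log2 scale (standard error 0.191, adjusted p = 0.0176, edgeR), a call lost without double mutant mouse 1 or 3 (adjusted p = 0.0584 and 0.0593). *Amotl1* had 0, 1 and 1 counts against 7, 1 and 4.

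Among 17 junction, polarity and binding proteins that hold or regulate YAP and TAZ, 16 were in the table and 13 were tested, of which 2 rose and 5 fell (53.8% called, against 36.8% of all tested genes; median log2 fold change -0.10). *Wtip*, an adaptor of the Ajuba family that binds LATS, rose from 2.07 ± 1.14 to 11.8 ± 5.81 CPM (SD, n = 3 each; log2 fold change 2.53, adjusted p = 0.0115, edgeR) and held its call in each fit without a mouse. Those that fell were the related adaptor *Limd1* (-0.56) and the polarity genes *Pals1* (-0.59), *Crb3* (-0.37) and *Patj* (-0.34), together with *Llgl2* (-0.29), which was named after its value was seen. These log2 fold changes stayed between -0.70 and -0.26 when a mouse was left out, but the calls were near the threshold. The count of 5 then ranged from 0 to 4, with 0 left without wild-type mouse 2, and it was 0 with library totals alone as the scale.

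The transcriptional targets did not move together, and more of them fell than rose. *Ccn1* (ENSMUSG00000028195; chromosome 3, 145309935 to 145312949, minus strand) encodes a matricellular protein and is an immediate target of YAP and TEAD. Its counts were 68, 49 and 95 in the wild-type and 95, 76 and 65 in the double mutant mice, or 2.83, 2.67 and 4.80 CPM against 4.46, 3.52 and 3.09 CPM. The groups overlapped entirely, with a wild-type library both lowest and highest. The means were 3.43 ± 1.19 and 3.69 ± 0.702 CPM (SD, n = 3 each), a log2 fold change of 0.10 with a 95% confidence interval from -0.60 to 0.81 (adjusted p = 0.818, edgeR).

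*Ccn2* (ENSMUSG00000019997; chromosome 10, 24315248 to 24318489, plus strand), its paralog and a widely used YAP reporter gene, had 0 counts in each wild-type mouse and 0, 2 and 6 counts in the double mutant mice. The mean of 2.67 counts was under the floor of 3 counts, so no fold is given, and without the filter on low counts edgeR gave an adjusted p of 0.161. Of its exonic bases, 570 (22.9%) lie opposite the antisense gene *Gm15270*, and the strand setting of the counting was not given in the sources used here. Of the other CCN genes, *Ccn6* had 0, 3 and 0 counts against 2, 0 and 2, and *Ccn3*, *Ccn4* and *Ccn5* were not analysed here.

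A 22-gene signature of YAP and TAZ targets, which includes *Amotl2*, *Lats2*, *Ccn1* and *Ccn2*, had 20 genes in the table and 11 tested, of which 1 rose and 7 fell, with a median log2 fold change of -0.88. Of all tested genes, 19.7% were called higher and 17% lower, with a median of 0.02. Without those 4 genes it had 8 tested, of which 1 rose and 6 fell, with a median of -0.94. The signature took 0.0694% ± 0.00405 of all counts in the wild-type libraries and 0.0376% ± 0.00449 in the double mutant libraries (SD over 3 mice each; two-sided exact permutation p = 0.1). Enterocyte markers were also lower, with 5 of 8 called lower and 1 higher and a share of counts of 4.28% ± 0.280 against 2.99% ± 0.144 (SD, n = 3); their part in the fall of the targets was not tested. *Nt5e*, which encodes the ecto-nucleotidase CD73, fell from 3400, 1988 and 2716 counts to 38, 22 and 45 (log2 fold change -6.29, adjusted p = 7.06e-06, edgeR).

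*Asap1*, an Arf GTPase-activating protein (log2 fold change -1.02, adjusted p = 0.00649, edgeR), and the kinase gene *Nuak2* (-1.01, adjusted p = 0.000609) fell by similar amounts. The other 3 that fell, named after their values were seen, were *Gadd45a* (-1.01), *Crim1* (-0.88) and *Dock5* (-0.71). *F3*, which encodes tissue factor, was the gene that rose, from 24, 42 and 26 counts to 152, 143 and 178 (log2 fold change 2.28, standard error 0.328, adjusted p = 0.00126, edgeR). Each of these 8 calls, *Lats2* and *Nt5e* included, held with each mouse left out.

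The 9 untested targets of the signature, *Ccn2* among them, were near or under the limit of detection and leaned in either direction. *Tgfb2* had 0 counts in each wild-type library and 4, 4 and 3 in the double mutant libraries, and *Arhgef17* had 0 against 7, 5 and 4. *Axl* had 0, 2 and 0 counts against 5, 1 and 3, and *Rbms3* had 4, 1 and 2 against 7, 2 and 5. *Igfbp3* had 0, 6 and 5 counts against 1, 0 and 4, and *Ptpn14* had 2, 4 and 15 against 5, 2 and 4. *Ccdc80* had 0, 3 and 4 counts against 2, 0 and 3, and *Fjx1* had at most 1 count in any library. *Myof* was above that limit and was tested, with 7, 131 and 133 counts in the wild-type and 99, 102 and 83 in the double mutant mice. It was not called with every library (log2 fold change -0.08, adjusted p = 0.955, edgeR). Without wild-type mouse 1 it was called lower (-0.64, adjusted p = 0.0388, edgeR).

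**Figure D3:**
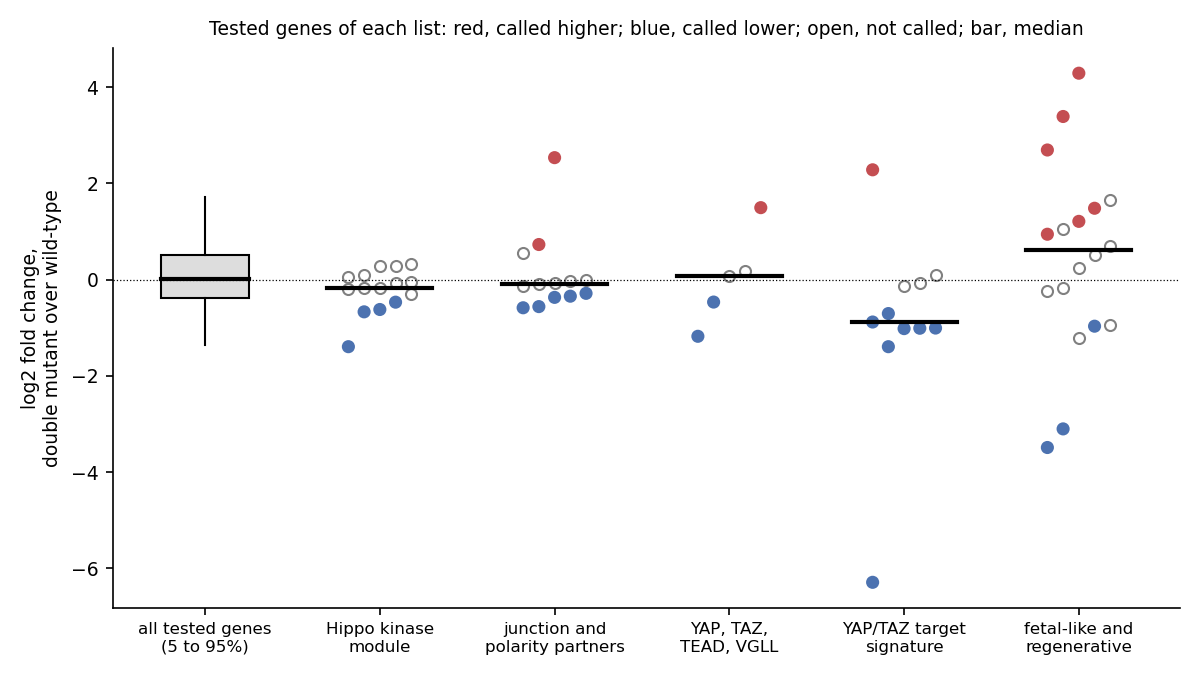
Log2 fold change of double mutant over wild-type (vertical axis) for each tested gene of 5 lists, with all 13346 tested genes at the left as a box from the 25th to the 75th percentile, a median bar and lines to the 5th and 95th. Red points were called higher, blue points lower and open points were not called; black bars are list medians, -0.88 for the target signature and 0.61 for the fetal-like list.

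The fetal-like genes *Clu* and *Anxa1* were both higher in double mutant villi, from a very low wild-type level. *Clu* (ENSMUSG00000022037; chromosome 14, 66587320 to 66600385, plus strand) encodes clusterin, a secreted chaperone that marks regenerative stem cells of the injured gut. It had 6, 13 and 8 counts in the wild-type and 61, 59 and 66 counts in the double mutant mice, or 0.250, 0.707 and 0.404 CPM against 2.86, 2.74 and 3.13 CPM. The double mutant libraries were close to each other and all above the wild-type libraries. *Clu* rose from 0.454 ± 0.233 to 2.91 ± 0.202 CPM (SD, n = 3 each), which is 2.69 on the log2 scale (standard error 0.424, 95% confidence interval 1.73 to 3.66, adjusted p = 0.00192, edgeR).

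The *Clu* call held with each mouse left out, between 2.38 and 3.15. Without double mutant mouse 1, whose library held smooth muscle transcripts, the log2 fold change of *Clu* was 2.71 (adjusted p = 0.00886, edgeR). Markers of crypt stem cells were also higher in the double mutant, with 1139, 2349 and 2769 summed counts over 7 genes in wild-type and 8582, 6671 and 7315 in double mutant libraries (4 of the 7 rose and 0 fell, where 19.7% of all tested genes were called higher and 17% lower); their part in the *Clu* result was not tested.

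*Anxa1* (ENSMUSG00000024659; chromosome 19, 20447918 to 20465434, minus strand) encodes annexin A1, a phospholipid-binding protein of wound repair. It had 0 counts in each wild-type mouse and 11, 8 and 13 counts in the double mutant mice, or 0.516, 0.371 and 0.617 CPM. Every double mutant library was above every wild-type library, as for 20.9% of all 20409 features. The mean of *Anxa1* in the double mutant (0.501 ± 0.124 CPM, SD, n = 3) was 3.42 times the mean wild-type floor of 3 counts. That figure makes no allowance for the error of the 8 to 13 double mutant counts. Without the filter on low counts it was called by edgeR (adjusted p = 0.00441), and DESeq2 called it as well (adjusted p = 0.00195).

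The whole list of 24 fetal-like and regenerative genes was divided. Of 18 tested, 6 rose and 3 fell (50% called, against 36.8% of all tested genes), with a median log2 fold change of 0.61, and without *Clu* 5 of 17 rose and 3 fell (median 0.51). In 10 of the 24, *Anxa1* included, every double mutant library was above every wild-type library, against 20.9% of all features in the table. The gastric annexin gene *Anxa10* had 5, 53 and 30 counts against 814, 625 and 428 (log2 fold change 4.29, adjusted p = 0.00771, edgeR), moving to 5.12 without wild-type mouse 2. *Ly6a*, which encodes the repair marker Sca-1, had 17, 20 and 25 counts against 155, 319 and 208, and the EGF receptor ligand *Ereg* had 43, 40 and 40 against 123, 138 and 96 (log2 fold change 1.48, adjusted p = 0.00266, edgeR).

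The other 2 that rose, named after their values were seen, were *Krt7* (1.21) and *Anxa5* (0.94). The *Krt7* call was lost without double mutant mouse 2 or 3 (adjusted p = 0.0951 and 0.0727, edgeR) and without the filter on low counts. The *Anxa5* call was lost without wild-type mouse 2 or 3 or double mutant mouse 1 or 2 (adjusted p = 0.116, 0.107, 0.123 and 0.088, edgeR). The tight junction gene *Cldn4* (-3.49), the membrane protein gene *Emp1* (-0.97) and *Basp1* (-3.10; 68, 45 and 106 counts against 14, 1 and 11) fell, each in every fit without a mouse.

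Several fetal markers were near or under the limit of detection in both groups. *Anxa8*, *Gja1* and *Msln* had at most 2 counts in any library. *Mmp7* had 2, 134 and 223 counts in the wild-type and 256, 535 and 447 in the double mutant mice, and *Anxa3* 4, 69 and 72 against 128, 98 and 105, so that for both genes wild-type mouse 1 lay far below every other library. Neither was called with every library, and without wild-type mouse 1 *Mmp7*, which is also a Paneth cell gene, was called higher (log2 fold change 1.06, adjusted p = 0.038, edgeR).

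**Figure D4:**
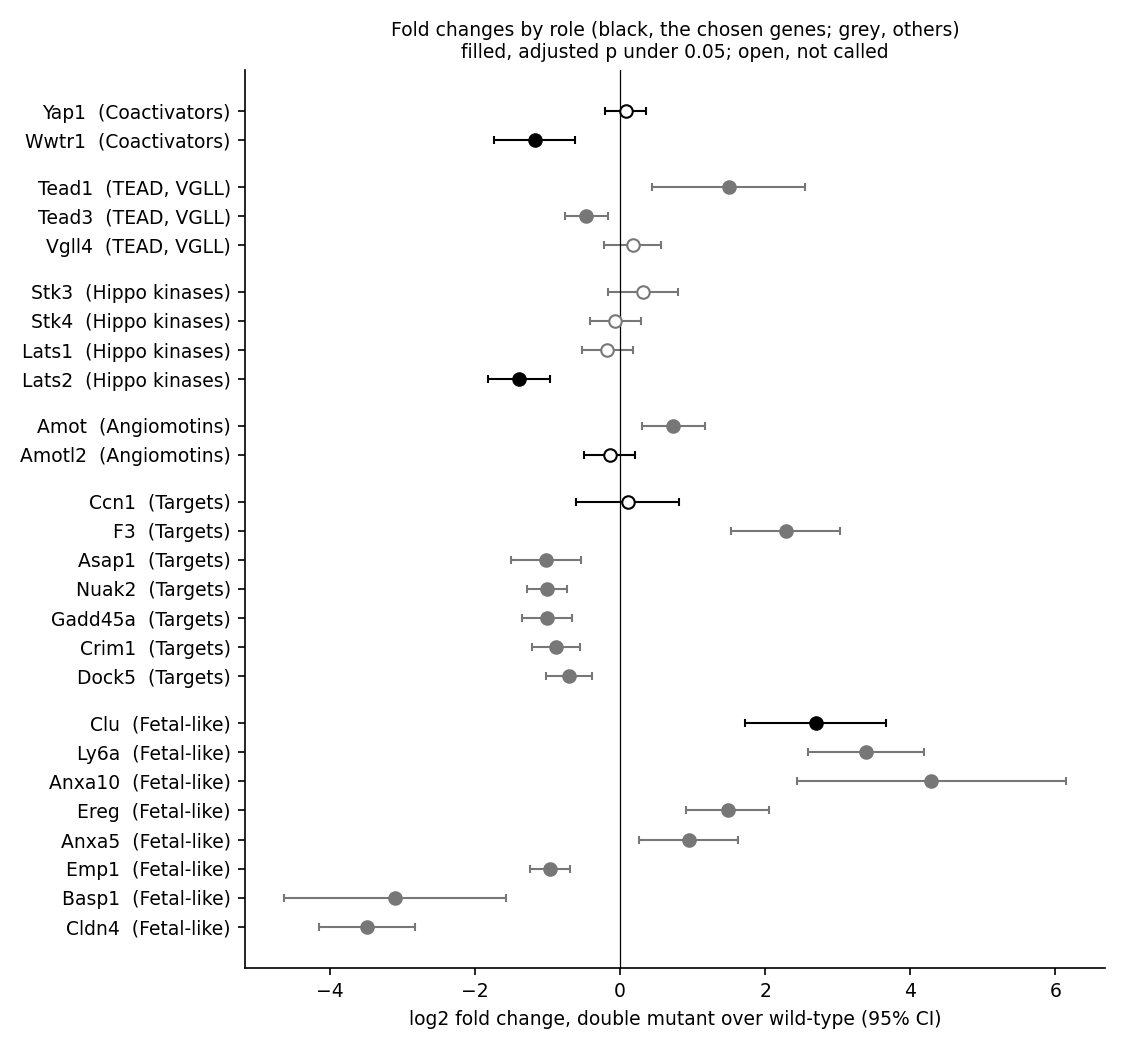
Log2 fold change of double mutant over wild-type (horizontal axis) with its 95% confidence interval for genes grouped by role, black for the tested genes among the 8 and grey for paralogs, Hippo kinases, cofactors and a selection of called list genes; filled points were called and open points were not. *Wwtr1* and *Lats2* lie left of 0, *Clu* right of 0, and the intervals of *Yap1*, *Amotl2* and *Ccn1* span 0.

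Per length, *Yap1* was the most abundant of the 8 genes in both groups, at 7.43 RPKM (6.40 to 8.19 over the 3 mice) in wild-type and 7.82 RPKM (7.54 to 8.21) in double mutant villi. In wild-type villi it was followed by *Lats2* (3.68 RPKM), *Amotl2* (2.69), *Ccn1* (1.69), *Wwtr1* (1.33) and *Clu* (0.132), with *Ccn2* and *Anxa1* at 0. Neighbours in that order had ranges that did not overlap, except *Ccn1* with *Wwtr1* and the last pair. In double mutant villi the order was *Amotl2* (2.44 RPKM), *Ccn1* (1.82), *Lats2* (1.40), *Clu* (0.847), *Wwtr1* (0.590), *Anxa1* (0.192) and *Ccn2* (0.0505) after *Yap1*, and there the ranges of *Amotl2* and *Ccn1* and of *Ccn1* and *Lats2* overlapped. *Lats2* thus went from the place after *Yap1* to a range that overlapped that of *Ccn1*, and *Clu* from below *Wwtr1* to above it.

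Outside the lists, the tested gene whose pattern over the 6 libraries was nearest to each member was found by the root mean square difference of centred log2 CPM. It was *Mmp15* for *Wwtr1* (0.0910; its own log2 fold change -1.12), *Frat1* for *Lats2* (0.106; -1.38) and *Tcf7* for *Clu* (0.147; 2.38). For the genes that were not called it was *Gorab* for *Yap1* (0.0308), *Rnf115* for *Amotl2* (0.0350) and *Palm* for *Ccn1* (0.134). For *Yap1* and *Amotl2*, 148 and 116 genes lay within 0.1, so the nearest gene has little standing there, while for *Wwtr1* it was 1 gene and for *Lats2*, *Clu* and *Ccn1* it was 0.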

How the data were processed

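The data are 6 bulk RNA-seq libraries of mouse duodenal villus epithelium, 1 per mouse. The authors used HISAT2 to align reads to mm9 and featureCounts to count reads per gene, and the deposited values are raw counts, neither normalized nor pooled; the strand setting and the rule for reads matching several genes are not given in the sources used here, so overlapping and antisense genes are uncertain. The labels give EDTA steps for isolating the epithelium that differ from those of the study's methods. Of 20073 Ensembl identifiers, 20032 matched GENCODE's mm9 annotation, and 336 further features are numbered transcripts. Groups and mouse numbers came from the sample labels; the study's sample sheet numbers the replicates differently. Replicates are separate mice, and no libraries held identical counts.

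Counts were analysed in R 4.3.3 with edgeR 4.0.16 (filterByExpr, TMM, glmQLFit robust, glmQLFTest) with Benjamini-Hochberg adjustment over 13346 genes. Standard errors are the log2 fold change over the square root of F. Floors and intervals cover counting error or spread between mice only. RPKM used the union of annotated exons. The script was first tested on simulated data. Alternatives were RLE factors, library size alone, DESeq2 1.42.0, limma-voom (3.58.1), no filter, at least 1 CPM in 3 libraries, a replicate block, sex as a covariate, fold thresholds of 1 and 2 (log2), and each mouse left out.

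The 8 genes and the lists were chosen with earlier results of these data known. In each list the called genes were named up to the 4 largest fold changes in each direction. Paralogs, the targeted genes *Smad4* and *Ctnnb1* and the nearest gene by pattern were also named. The sequences came from the RefSeq promoter table, placed in mm9 by exact match.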

Additional observations from a re-analysis of the deposited data

How the results depend on the processing

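The falls of *Wwtr1* (log2 fold change -1.28 to -0.98) and *Lats2* (-1.59 to -1.20) and the rise of *Clu* (2.38 to 3.15) kept their direction and their calls in all 6 fits without a mouse and in the 8 other fits. *Yap1*, *Ccn1* and *Amotl2* were not called in any of these, and their small differences changed sign: *Yap1* ran from -0.023 (without wild-type mouse 1) to 0.147 over the fits without a mouse and to 0.266 with library size alone, *Ccn1* ran from -0.047 (without wild-type mouse 2) to 0.419, with -0.046 without double mutant mouse 1 and -0.02 without wild-type mouse 1, and *Amotl2* was 0.0496 with library size alone. The count of the 8 genes called higher was 1 to 2 over the fits without a mouse, and 2 without the filter and with DESeq2, where *Anxa1* joined *Clu*; a fold threshold of 2 left 0 of the 2 lower. For the Hippo kinase module, library size alone gave 2 higher instead of 0, and thresholds of 1 and 2 left 1 and 0 of the 4 lower. For the junction and polarity list, the 2 higher became 1 at either threshold and 1 to 2 without a mouse, and the 5 lower became 0 with library size alone and at either threshold, 3 without the filter, and 0 to 4 without a mouse. For the coactivator and TEAD list, the 1 higher became 0 at a threshold of 2 and 0 to 2 without a mouse, and the 2 lower became 1 with library size alone and at a threshold of 1, 0 at a threshold of 2, and 1 to 2 without a mouse. For the target signature, the 1 higher became 2 without the filter and with DESeq2, and a threshold of 2 left 1 of the 7 lower. For the fetal-like list, it left 3 of the 6 higher. Apart from those that follow from fewer or more genes tested or from a stricter call, the cause was not tested.

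Library size alone moved the split of called genes from 2632 higher and 2273 lower to 3732 and 1425. With the replicate number as a block, all genes called went from 4905 to 3834; the junction and polarity list had 2 instead of 5 lower, the Hippo kinase module 3 instead of 4 (*Taok1* lost, adjusted p = 0.0793, edgeR), and the coactivator and TEAD list 0 instead of 1 higher and 1 instead of 2 lower. The deviations of same-numbered libraries correlated at 0.0224, -0.109 and 0.0123, against up to 0.0935 for libraries of different numbers. With 3 libraries per group, this cannot show whether mice were paired, by these numbers or in another way. The replicate numbers are those of the sample labels, which differ from those of the study's sample sheet. Counts under 20 in every library, as for *Ccn2*, *Anxa1* and *Tead4*, limit what can be said of those genes.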

Other observations

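Immediate-early genes encode transcription factors and feedback regulators that respond quickly to growth signals and to the handling of tissue, and some of them (*Fos*, *Jun*) form the AP-1 factors. Of 11 tested, 0 rose and 6 fell in double mutant villi, with a median log2 fold change of -0.65, where 36.8% of all tested genes were called and 17% were lower. *Fosb* fell by 2.15 (adjusted p = 0.00215), *Jun* by 1.79 (adjusted p = 0.0022) and *Fos* by 1.63 (adjusted p = 0.000293) on the log2 scale (edgeR). *Jun* had 2115, 3368 and 3630 counts in the wild-type and 895, 951 and 951 in the double mutant mice, and *Fos* had 3173, 3673 and 3259 against 1251, 1152 and 1028, with no overlap between groups for either. The mRNA decay factor gene *Zfp36* (-0.67) was called lower too, while *Egr1* (0.35, adjusted p = 0.488) and *Ier3* (-0.02, adjusted p = 0.948) were not. Each of the 6 calls held with each mouse left out in turn. Of 6 tested lymphocyte markers, *Ptprc* (-1.29, adjusted p = 0.0054, edgeR) and *Cd8a* (-0.92, adjusted p = 0.019, edgeR) fell and 0 rose. Summed counts over the 9 listed genes were 1850, 2703 and 2603 in the wild-type and 1344, 1605 and 2197 in the double mutant libraries. Their share of counts overlapped between the groups (two-sided exact permutation p = 0.3). The share of counts on enterocyte markers was 4.28% against 2.99%. The part of both marker lists in the falls of the immediate-early genes was not tested.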
